A study of Mus musculus with 2 samples.

Results

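The nuclear factor I genes Nfia, Nfib, Nfic and Nfix were located on a map of chromatin boundaries from mature olfactory sensory neurons of the mouse. The 4 genes were chosen by name, and all 4 were found among 21755 protein-coding genes of a GRCm38 annotation. The neurons express the odorant receptor gene Olfr1507, also called MOR28, and were sorted by flow cytometry from the olfactory epithelium of adult MOR28-GFP mice of mixed sex on the 129P2/OlaHsd strain. There was 1 group of 2 biological replicates (170000 and 220000 cells, fixed with 1% formaldehyde), with no treatment or further modification listed. In situ Hi-C, here with the enzyme DpnII, measures how often stretches of DNA touch in the fixed nucleus. Boundaries are positions that few of those contacts cross. The authors combined both replicates before calling boundaries, so the data are 1 list of 7367 boundaries with no replicate error, no counts and an unknown depth. Each boundary is an interval of 5000 bp with a strength, the authors' own score, and a class that passes from weak to strong at 0.5. The median strength over the list was 0.563. The list holds no expression values, so the labelled cell type was not checked against markers, and nothing below says whether a gene was active.

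Nuclear factor I proteins are transcription factors that bind, as pairs, a palindromic DNA site whose arms read TTGGC and GCCAA. The 4 vertebrate genes have overlapping expression and are known for roles in the development of glia and neurons (Nfia, Nfib, Nfix), lung (Nfib), muscle and neural stem cells (Nfix) and teeth (Nfic). The DNA-binding domain is encoded largely by a long second exon that the genes share. A boundary inside such a gene, or between alternative first exons, parts one piece of its regulatory surroundings from another on the contact map.

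The shared exon shows how close the family members are in sequence, and where their common coding part sits relative to the boundaries. It was 532 bases long and was exon 2 in every GENCODE coding transcript with a complete 5′ end, except that the 2-exon Nfib model holds 449 bases of it. Of the 532 bases, 351 (66%) were the same in all 4 genes. Nfic and Nfix were the closest pair, with 436 identical bases (82%), and Nfia and Nfic the most distant, with 403 (75.8%). The 60 bases at positions 53 to 112 of the exon, the stretch with most shared positions (48 of 60), are given below in the direction of transcription from the GRCm38 sequence. Capitals mark positions at which the 4 genes are not all alike.
Nfia, chr4:97783134-97783193, forward strand: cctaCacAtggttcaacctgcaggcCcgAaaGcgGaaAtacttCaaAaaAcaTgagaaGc
Nfib, chr4:82498658-82498717, reverse strand: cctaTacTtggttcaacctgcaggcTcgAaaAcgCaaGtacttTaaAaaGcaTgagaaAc
Nfic, chr10:81420687-81420746, reverse strand: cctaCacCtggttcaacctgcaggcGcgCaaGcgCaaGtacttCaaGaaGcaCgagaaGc
Nfix, chr8:84772204-84772263, reverse strand: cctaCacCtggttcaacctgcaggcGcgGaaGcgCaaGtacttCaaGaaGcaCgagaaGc

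The 4 genes fell into a long pair and a short pair. Nfib (416 kb) and Nfia (346 kb), both on chromosome 4, were at the 98.5th and 97.9th percentiles of length among protein-coding genes. Nfix (100 kb, chromosome 8) and Nfic (59.5 kb, chromosome 10) were at the 88.6th and 80.4th percentiles. A boundary midpoint lay inside the annotated body of 1 of the 4, Nfib, against 12.7% of all protein-coding genes. No member had its transcription start site (TSS, the 5′ end of the gene model) at a boundary, that is inside a boundary interval extended by 10 kb both ways, against 13.0% of all protein-coding genes. With 4 genes, neither count can be told from those shares.

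**Figure D1:**
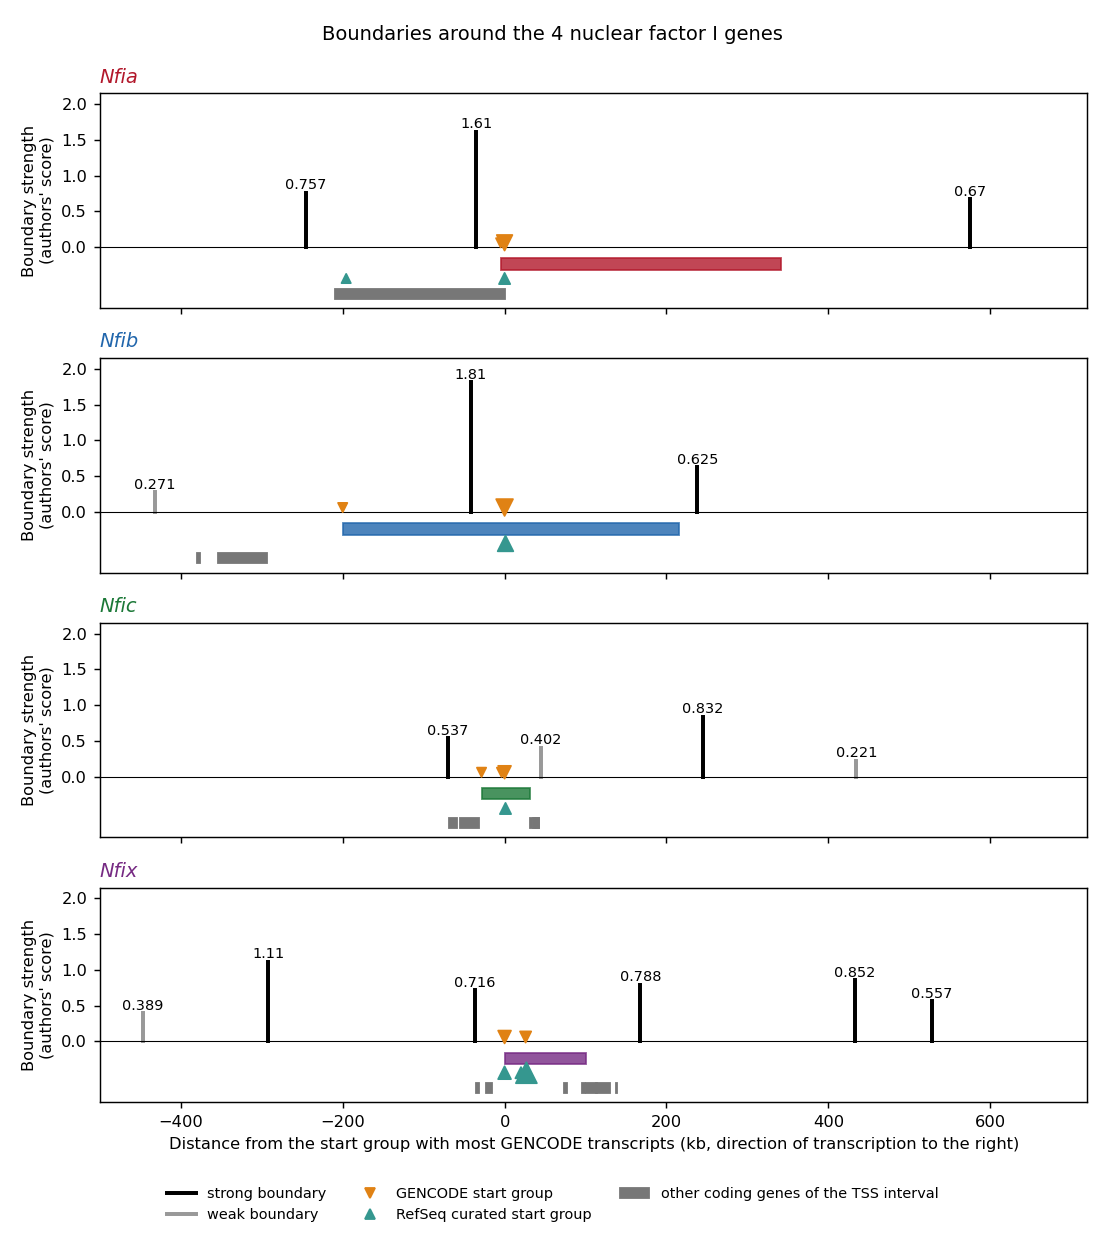
Boundaries around each nuclear factor I gene, with distance in kb from the start group that most GENCODE coding transcripts share on the x axis (transcription to the right) and the authors' boundary strength on the y axis. Black lines are strong and grey lines weak boundaries, coloured bars the genes, triangles groups of annotated starts (larger with more transcripts) and grey bars the other coding genes of the TSS interval. The boundaries of 1.81 at Nfib and 1.61 at Nfia, the strongest drawn, both stand just upstream of the main starts. Among the coding transcripts used, each parts them from a lone start further upstream.

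In Nfib, the boundary in the gene body parted the main starts from 1 distal start. Nfib lies on the reverse strand of chromosome 4, 82290173 to 82705750 (ENSMUSG00000008575.17). The boundary spanned 82545001 to 82550000, was strong at 1.81 and stood at the 95.1th percentile of the list. It lay in the 207 kb first intron of a 2-exon transcript model that begins at 82705750, and it overlapped no Nfib exon. The other 6 full-start coding transcripts begin between 82505308 and 82505770, so their whole length lay on the far side of it. The boundary midpoint was 158 kb downstream of the distal start and 41.7 kb upstream of the main starts. RefSeq places all 5 curated Nfib mRNAs at 82505779 and has no start beyond the boundary, so with the RefSeq gene model (217 kb) Nfib held no boundary in its body.

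The main starts of Nfib shared their interval with no other protein-coding TSS. That interval ran 280 kb, from the boundary in the gene to a strong boundary of 0.625 at 82265001 to 82270000, 22.7 kb past the 3′ end of Nfib. It held exon 2 and all later exons. The distal start lay in the neighbouring interval of 390 kb, closed upstream by a weak boundary of 0.271 at 82935001 to 82940000, over exon sequence of Frem1, an extracellular matrix gene. This second interval also held the TSSs of Zdhhc21, a palmitoyltransferase gene, and Cer1, which encodes Cerberus, a secreted antagonist of Nodal and BMP signals.

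Nfia had a similar arrangement, but its boundary fell inside or outside the gene by annotation. In GENCODE, Nfia lies on the forward strand of chromosome 4, 97772734 to 98118874 (ENSMUSG00000028565.18), and 5 of its 6 full-start coding transcripts begin between 97777608 and 97777834. A strong boundary of 1.61 (92.4th percentile) at 97740001 to 97745000 lay 30.2 kb upstream of the gene and 35.1 kb upstream of those 5 starts. RefSeq has a curated mRNA that begins at 97581943, on the other side of that boundary and 161 kb from it, and 2 that begin at 97777626. With the RefSeq gene, 541 kb long from 97578066, the boundary lay in the body of Nfia. In both genes, then, a boundary above the 75th percentile of the list (0.983) stood between the start group of most transcripts and a distal start. The distal start had a single model among the coding transcripts used. The RefSeq gene of Nfia begins upstream of its curated distal start, so the number of models there depends on which are used. Among the coding transcripts used, the distal start was in GENCODE alone for Nfib and in RefSeq alone for Nfia, so each annotation showed the arrangement at 1 of the 4 genes. By the same count, such a boundary lay between coding starts in 0.653% of 21582 GENCODE genes and in 0.344% of 20923 RefSeq genes. Among 263 GENCODE genes of similar length to Nfib (from 20% shorter to 25% longer) the share was higher, 5.70%. No length-matched share was computed for RefSeq, where Nfia is 541 kb long, so 0.344% is not a background for genes of that length.

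The RefSeq promoter table holds the distal Nfia start and none of the main ones. Its 300 bases, 250 before and 50 after the start (chr4:97581693-97581992, forward strand, GRCm38.p6), are printed because the 1.61 boundary parts this start from the rest of the gene.
Nfia distal start: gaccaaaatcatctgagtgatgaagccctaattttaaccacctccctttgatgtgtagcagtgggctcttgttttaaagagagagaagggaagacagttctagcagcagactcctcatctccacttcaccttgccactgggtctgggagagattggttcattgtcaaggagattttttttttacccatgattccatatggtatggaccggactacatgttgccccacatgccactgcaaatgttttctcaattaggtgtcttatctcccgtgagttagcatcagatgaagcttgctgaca
The window had 44.7% GC and 2 CG dinucleotides, at the 22nd and 23.3th percentiles of 32851 RefSeq promoters, and no TTGGC or GCCAA. The Nfic promoter of the table had 63% GC and 24 CG dinucleotides (78.4th and 81.6th percentiles). The 4 Nfix promoters ran from 44.3% to 57.3% GC and from 2 to 13 CG dinucleotides, and the lowest of them was like the distal Nfia start. The median over all promoters was 52.7% GC and 7 CG dinucleotides.

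Downstream, Nfia faced the longest stretch free of boundaries in the family. Its interval was 610 kb long, to a strong boundary of 0.67 at 98350001 to 98355000, which lay 234 kb past the 3′ end of the gene and 30.8 kb from the nearest coding TSS, that of Tm2d1. The interval was at the 89.1th percentile of the 7347 intervals of the list, whose median was 265 kb. Apart from Nfia, the only annotated coding TSS in it was that of E130114P18Rik, on the opposite strand. The other 7 annotated genes with a start there were 4 pseudogenes, the noncoding transcript Gm12676, the antisense transcript 0610025J13Rik and a small RNA gene.

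In GENCODE, both long genes had an opposite-strand gene whose start lay close to their main starts and whose body reached the boundary upstream. An opposite-strand gene starting within 5 kb and overlapping any boundary interval was found at 4.25% of 21582 coding genes. At Nfib it was Gm11266, an antisense noncoding gene that starts 2246 bp upstream of the main Nfib starts, runs 39.3 kb away from them and ends at 82547292, within the boundary interval of strength 1.81. At Nfia it was E130114P18Rik, which starts at 97778078, 470 bp inside the first Nfia transcripts, and in GENCODE extends 210 kb through the boundary of strength 1.61. RefSeq has E130114P18Rik as a noncoding gene of 16.7 kb on the far side of the boundary, from 97567875 to 97584591, which starts near the distal Nfia start and does not reach the boundary. Both its place beside the main starts and its overlap with the boundary therefore depend on the gene model. Within 5 kb of the starts of Nfic and Nfix, no gene of the opposite strand began. These pairs were singled out after their positions were seen.

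Nfix lay in a gene-dense interval of 205 kb, at the 33.3th percentile, with no boundary in its body. The gene is on the reverse strand of chromosome 8, 84699876 to 84800344 (ENSMUSG00000001911.16). Its interval was closed upstream by a strong boundary of 0.716 at 84835001 to 84840000, 37.2 kb from the TSS, over exon sequence of Gadd45gip1. Downstream it was closed by a strong boundary of 0.788 at 84630001 to 84635000, over exon sequence of the calcium channel gene Cacna1a and 67.4 kb past the 3′ end of Nfix. All annotated Nfix start groups, from 84772875 to 84800368, lay in this 1 interval, 37.1 to 64.1 kb from the upstream boundary.

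The Nfix interval held the TSSs of 7 other annotated coding genes. They were Ier2, an immediate early gene, Nacc1, a transcriptional repressor gene, Trmt1, of a tRNA methyltransferase, Lyl1, of a basic helix-loop-helix factor of blood cells, G430095P16Rik, Dand5 and Gadd45gip1. Lyl1 and G430095P16Rik lay inside the Nfix gene model on the opposite strand, and RefSeq has the second of them as noncoding. Dand5 belongs to the same family of secreted antagonists as Cer1, so that a gene of this family shared an interval with an Nfix start and with the distal Nfib start. This parallel was picked after the interval genes were listed, and no background share was computed for it. The interval of the main Nfib starts held no other coding TSS.

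Nfic had the shortest interval of the family, 115 kb, at the 3.46th percentile of all intervals. The gene is on the reverse strand of chromosome 10, 81396186 to 81455635 (ENSMUSG00000055053.18). Both boundaries that closed its interval were modest and lay at promoters of other genes. Downstream, a weak boundary of 0.402 at 81380001 to 81385000 was 1.93 kb from the TSS of Dohh, an enzyme gene that modifies translation factor eIF5A, and 13.7 kb past the 3′ end of Nfic. Upstream, a boundary just past the strong threshold (0.537) at 81495001 to 81500000 was 1.11 kb from the TSS of Ncln, an endoplasmic reticulum membrane protein gene, and 41.9 kb from the Nfic TSS. With the strong boundaries alone the interval was 315 kb with 24 coding TSSs, so that the weak boundary decides the length.

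The 6 other annotated coding genes of the Nfic interval were Dohh, Gm48551, Gm48552, Smim24, Celf5, which encodes an RNA-binding protein, and Ncln. RefSeq has Gm48551 as noncoding. The microRNA genes Mir6913 and Mir1191b also lay there, the second inside Nfic. Beyond the Ncln boundary the next one came after 1115 kb, at the 98th percentile, so that the shortest interval of the family bordered on a far longer one. That next boundary had a strength of 1.97 (96.7th percentile).

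Set against genes of similar length (from 20% shorter to 25% longer), Nfib had a boundary in its GENCODE body, as most such genes do, and Nfia had none. A boundary midpoint lay in the body of 60.4% of 265 genes of the length of Nfib and in 58.8% of 337 genes of the length of Nfia. For Nfix and Nfic the shares were 25.9% of 1313 and 16.7% of 1804 genes. The median number of boundaries in the body was 1 for genes as long as Nfia or Nfib and 0 for the shorter lengths. Nfix and Nfic, without one, were like most genes of their lengths. By RefSeq models it was Nfia that held 1 and Nfib that held 0.

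The strength of the Nfib boundary stood out more than its presence. Inside protein-coding genes lay 2950 boundaries with a median strength of 0.605, and 1.81 was at the 96.4th percentile of these. Inside genes at least 0.8 times as long as Nfib lay 595 boundaries with a median of 0.434, of which 43.9% were strong, and 1.81 was at the 97.1th percentile. The boundary counts as inside Nfib only through the 2-exon GENCODE model, and by the RefSeq model it lay upstream of the gene. These percentiles describe 1 boundary in 1 pooled list and carry no test.

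**Figure D2:**
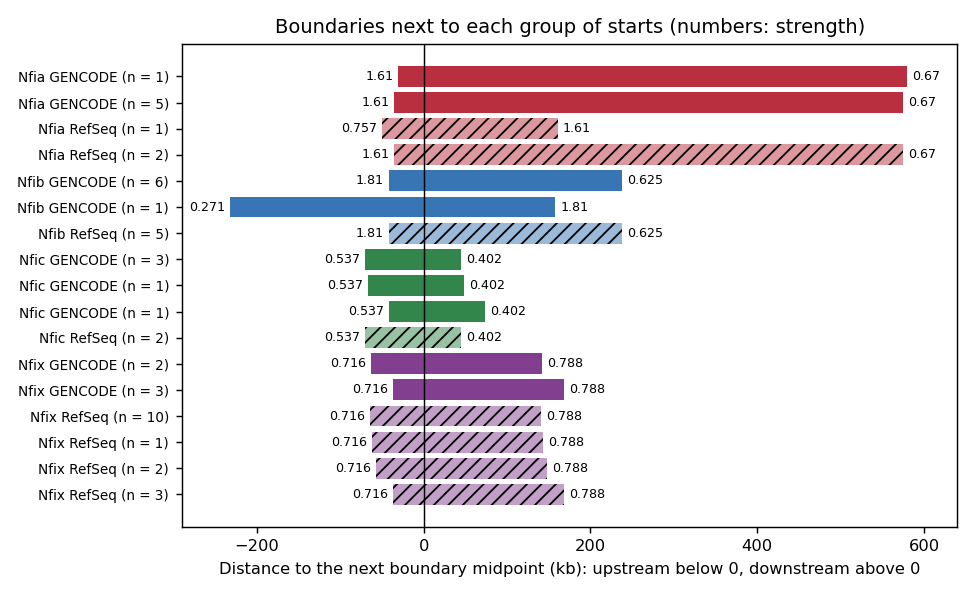
Distance in kb from each group of annotated starts to the next boundary midpoint, upstream to the left of 0 and downstream to the right, with the number of transcripts in each group and the boundary strengths at the bar ends. Plain bars are GENCODE coding transcripts and hatched bars RefSeq curated mRNAs. The upstream bar is 30.2 to 70.3 kb long at every group apart from the distal Nfib start, where it is 232 kb.

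From the gene-model TSS, the boundary upstream was nearer than the one downstream at 3 of the 4 genes. By gene models the upstream distance was 30.2 kb at Nfia, 37.2 kb at Nfix, 41.9 kb at Nfic and 232 kb at Nfib, and the downstream distance was 580, 168, 73.1 and 158 kb in the same order. Upstream was the nearer side at 3 of 4 genes, against 52.4% of 21538 protein-coding genes with a boundary on both sides. With 4 genes, this count cannot be told from that share. An upstream boundary within 50 kb was present at the same 3 genes, against 23.4%, and 1 that was also above the 75th percentile of strength at Nfia alone, against 7.32%. The median upstream distance over all protein-coding genes was 125 kb, with quartiles of 54.1 and 229 kb, so Nfia, Nfix and Nfic lay below the lower quartile. The reach of 50 kb was chosen after the values were seen.

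The choice of start moved these distances. From the main Nfib starts the upstream distance was 41.7 kb, to the boundary of 1.81. From the Nfic starts that 3 coding transcripts share, at 81427114 to 81427187, it was 70.3 kb, and the weak boundary downstream was nearer at 44.7 kb. From the second Nfix start group it was 63.1 kb. No annotated coding transcript start of the 4 genes lay at a boundary, and none did with the added reach widened to 25 kb for the gene model starts.

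**Figure D3:**
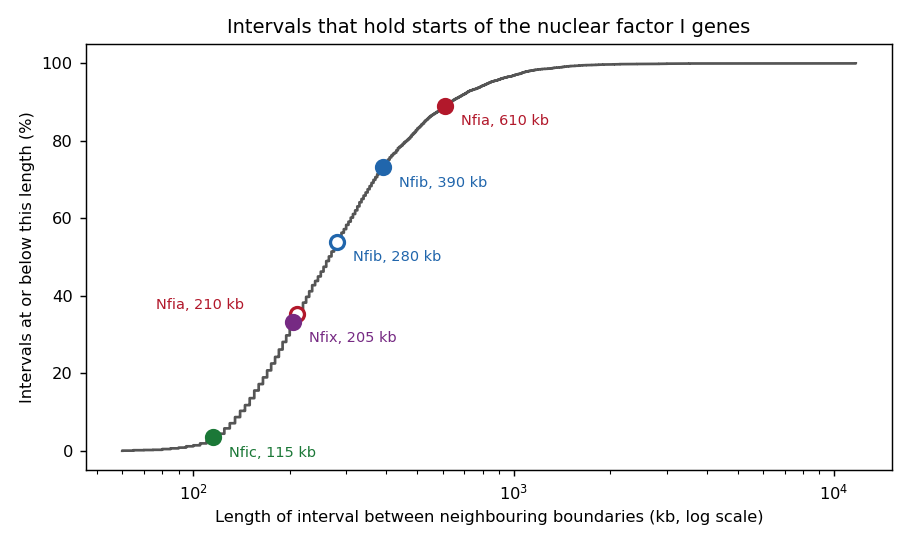
Cumulative distribution of the lengths of all 7347 intervals between neighbouring boundaries, with length in kb on a log x axis and the percent of intervals at or below that length on the y axis. Filled points mark the intervals that hold the TSS of each gene model and open points those that hold another annotated start of the gene. The Nfic interval lies near the lower end and the Nfia interval at 89.1%.

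With all boundaries and the GENCODE gene-model starts, the intervals of the long pair held fewer coding TSSs than those of the short pair. The intervals of Nfia (610 kb) and Nfib (390 kb) held 2 and 3 coding TSSs, those of Nfix (205 kb) and Nfic (115 kb) held 8 and 7, each count including the member, and the median over protein-coding genes was 6. The Nfia and Nfib intervals had 41.6% and 41.9% GC, close to the median of 42.6% over all intervals. The Nfic interval had 54.5% GC, with 3 of 7347 intervals higher, and the Nfix interval had 51.3%, with 145 higher. Within 1 Mb of the TSS on each side lay 4 boundaries at Nfia, 6 at Nfib, 7 at Nfic and 9 at Nfix, where the median gene had 7. From the main GENCODE starts of Nfib, the interval was 280 kb with 1 coding TSS, fewer than in the longer intervals of 390 and 610 kb. The order between the long and the short pair did not hold under every setting. With the boundaries above the 75th percentile of strength alone, the intervals were 2445 kb with 100 coding TSSs at Nfic, 1635 kb with 64 at Nfix, 1180 kb with 7 at Nfia and 1080 kb with 8 at Nfib. From the RefSeq start, the Nfia interval was 210 kb, close to the 205 kb of Nfix, with 41.9% GC and 1 coding TSS.

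Matches to the palindromic binding site of the family itself, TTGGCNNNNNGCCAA, lay in the intervals of Nfia and Nfib. The site reads the same on both strands in its fixed letters, so each match was counted once, and the genome had 0.615 of them per Mb on the chromosomes of the list. The 610 kb Nfia interval held 3, all inside the Nfia gene model. The 280 kb interval of the main Nfib starts held 1, inside Nfib. At least 1 match lay in 26.9% of 845 intervals of similar length to that of Nfia (from 20% shorter to 25% longer), and 3 or more in 8 of them (0.947%). The cutoff of 3 was the count seen at Nfia, the highest among the intervals of the family, so this share is no measure of rarity. For the 280 kb Nfib interval, 17.7% of 2151 intervals of similar length held at least 1. None lay in the intervals of Nfix, Nfic, the distal Nfib start or the distal Nfia start. The matches are shown with 24 bases on each side in the direction of transcription of the member, with the site in capitals and positions for the site.
Nfia, chr4:97776506-97776520: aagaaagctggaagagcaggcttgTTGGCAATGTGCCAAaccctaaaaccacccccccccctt
Nfia, chr4:97869259-97869273: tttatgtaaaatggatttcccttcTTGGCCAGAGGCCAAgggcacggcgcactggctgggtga
Nfia, chr4:97876121-97876135: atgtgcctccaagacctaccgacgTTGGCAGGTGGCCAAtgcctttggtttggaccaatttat
Nfib, chr4:82379280-82379294: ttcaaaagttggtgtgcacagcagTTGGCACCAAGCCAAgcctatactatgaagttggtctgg
None of the 4 overlapped an exon. The first lay 3.77 kb into the Nfia gene model, ahead of the main starts at 97777608, and the next pair at 96.5 and 103 kb from the TSS. The Nfib match was 326 kb from the gene model's TSS. A match is a run of letters in the reference genome, not a bound site, and the list holds no binding data.

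Matches were also sought near the boundaries themselves. Of the 9 boundaries inside or next to the 4 genes, 1 had the palindrome within its interval extended by 10 kb both ways, against 1.67% of all boundaries. It was the weak boundary downstream of Nfic, with the match 0.35 kb from the midpoint, at chr10:81382146-81382160 on the forward strand.
Nfic downstream boundary: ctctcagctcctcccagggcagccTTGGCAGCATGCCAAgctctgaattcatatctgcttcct
Among RefSeq promoters, the palindrome was in 0.0365% and the single arm TTGGC, on either strand, in 46.7%. The table holds 1 promoter for Nfia, 1 for Nfic and 4 for Nfix. The palindrome was in none of them, and the single arm was in 3 of the Nfix promoters.

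CTCF, the DNA-binding protein found at many boundaries, has a longer motif, and a 12-letter core of it was searched on both strands. It was found at 1 of the same 9 boundaries, against 23.9% of the 7367. That boundary was the one upstream of Nfix, and the match lay on the reverse strand, 9.61 kb from the midpoint, at chr8:84847107-84847118. It is printed with 24 bases on each side.
Nfix upstream boundary: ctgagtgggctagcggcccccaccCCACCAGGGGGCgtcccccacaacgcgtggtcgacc
The windows of the strong boundaries of 1.61 at Nfia and 1.81 at Nfib held no match to this core, which says only that these letters are not there.

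The early B-cell factor genes, whose proteins are known to act with Lhx2 in these neurons, gave the nearest comparison. Ebf1 (391 kb), close to Nfib in length, had no boundary in its body, while the shorter Ebf2 (198 kb) and Ebf3 (121 kb) had 1 each, with strengths of 0.498 and 0.659. The nearest boundary lay upstream of the TSS at all 4 Ebf genes, 8.05 to 37.7 kb away, and at 52.4% of all protein-coding genes. Its strength was 1.31 at Ebf1, 1.64 at Ebf2, 2.5 at Ebf3 and 0.723 at Ebf4. At 3 of the 4 this boundary was above the 75th percentile of strength, as at Nfia. Ebf3 alone of the 8 genes had its TSS at a boundary. Intervals ran from 125 to 415 kb over the Ebf genes and from 115 to 610 kb over the nuclear factor I genes, and the ranges overlapped over most of their length.

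**Figure D4:**
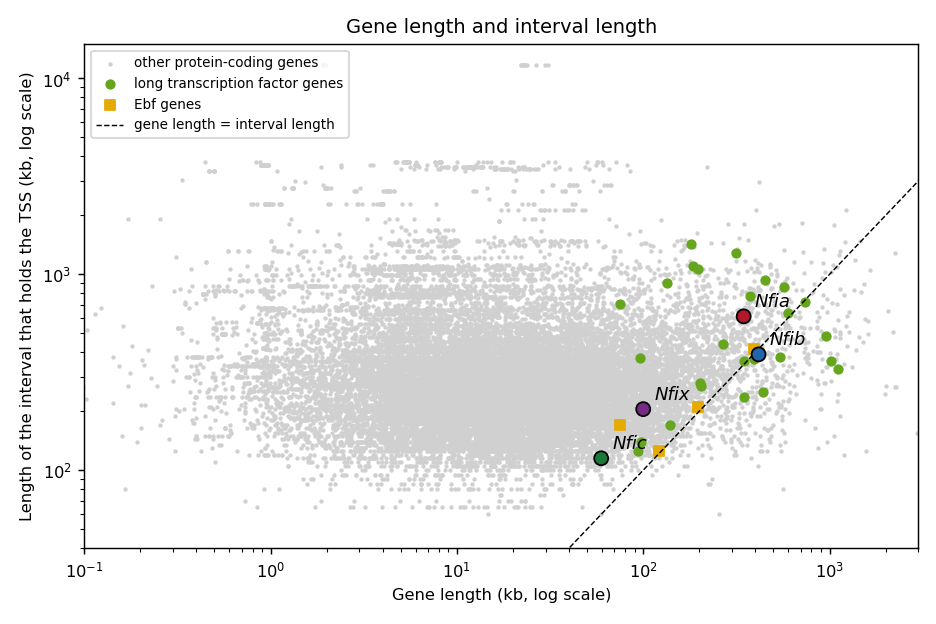
Gene length (x axis) and length of the interval that holds the TSS (y axis), both in kb on log scales, for protein-coding genes (light points), 26 long transcription factor genes (green), 4 Ebf genes (squares) and the 4 nuclear factor I genes (labelled). On the dashed line the gene is as long as its interval. Nfib lies near the line and Nfia, Nfix and Nfic above it.

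Of 26 other long transcription factor genes expressed in many neurons, 14 (53.8%) had a boundary in the body. The share was 12.7% of all protein-coding genes but 58.8% and 60.4% of those as long as Nfia and Nfib. The 26 genes ran from 75.4 to 1106 kb, with a median of 329 kb, so the list was not matched in length to either member. The 6 genes of 346 to 450 kb, near the members in length and picked for that after their values were seen, differed among themselves. Bach2 (347 kb), an immune and neuronal repressor gene, held 3 boundaries, the strongest 1.83, close to the 1.81 in Nfib. Myt1l (395 kb), a neuronal repressor gene, held 1 of 1.16, and Tshz2 (439 kb) 1 of 0.265. Tcf4 (346 kb), which encodes a partner of basic helix-loop-helix factors, St18 (374 kb) and Zfpm2 (450 kb) held none. The TSS was at a boundary in 5 of the 26 genes (Bcl11b, Myt1l, Pbx3, Tcf4 and Tshz2), against 13.0% of all protein-coding genes, and the nearest boundary was upstream in 18, against 52.4%. The median interval was 410 kb, between those of Nfib and Nfia.

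A further list held 22 genes tied to nuclear factor I factors in other tissues, as activators, partners or targets. A boundary lay in the body of 5 of them (22.7%, against 12.7% of all protein-coding genes). Their median length was 39.1 kb, against 17.4 kb over all protein-coding genes, and these shares were not matched for length. The TSS was at a boundary in 3, near the background of 13.0%. Sox9, known as an inducer of Nfia in glial precursors, had its TSS 4.72 kb from a weak boundary of 0.226. Sox10, a glial regulator gene, held a boundary of 0.77, 2.74 kb from its TSS. Mef2c, a muscle and neuronal regulator gene, held a boundary of 1.37, Aldh1l1, an astrocyte enzyme gene, 1 of 1.01, Elf5 1 of 0.506 and Zbtb20 1 of 0.374.

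Of 10 regulators and markers of olfactory neurons, 3 had the TSS at a boundary and 2 a boundary in the body, beside 13.0% and 12.7% of all protein-coding genes. Emx2, a homeobox gene, had its TSS 10.9 kb from a boundary of 2.33. Lhx2 and Atf5 each held a weak boundary near the TSS, of 0.447 and 0.359. The other 7 genes of the list had neither.

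Across 21538 protein-coding genes, the genes most like each member lay outside the family. With so few other members among so many genes, this was nearly certain beforehand and says nothing about a shared family pattern. Likeness was the Euclidean distance over 5 measures scaled to SD units. They were gene length, interval length and TSS to nearest boundary, each on a log scale, boundaries in the body and strength of the nearest boundary. Nearest to Nfib were Utrn, Vav3 and Itpr1 (0.196 to 0.302), each 338 to 487 kb long with 1 boundary in the body and a nearest boundary of 1.69 to 1.9. Nearest to Nfia were Col25a1, Cdh2 and Fam19a2 (0.299 to 0.433), with intervals of 590 to 655 kb. Nearest to Nfix were Map4k5, B230118H07Rik and Fnbp1 (0.121 to 0.203), and nearest to Nfic were Tmem182, Emsy and Fmnl3 (0.189 to 0.256). Within the family Nfic and Nfix were the closest pair, at 0.996, and Nfib and Nfic the most distant, at 4.18. Nfia was nearer to Nfix (2.47) than to Nfib (2.84), the other long gene. No distances between random pairs of genes were computed to set beside those within the family. All these distances used the GENCODE gene-model TSS, which for Nfib is the distal start, 158 kb from the nearest boundary. From the main Nfib starts the nearest boundary was 41.7 kb away, and likeness was not recomputed from them or from RefSeq models.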

How the data were processed

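Per the labels, the authors merged the contact lists of both replicates on GRCm38 into 1 matrix, from which boundaries were called. Aligner, caller and window were not given in the sources used here, and insulation and compartment tracks were not used here. The deposited strength is a score of unstated scale, and the deposited class is another label that splits it at 0.5. Boundary midpoints were joined to GENCODE M21 (GRCm38) and, for the members and their neighbours, RefSeq GRCm38.p6 models. Sequences are those of the reference strain, not of the 129P2/OlaHsd mice. An interval is the distance between neighbouring midpoints, so lengths are known to about 5000 bp. Percentiles are over all intervals, boundaries or protein-coding genes on 20 chromosomes (all but Y). Start groups join starts under 1 kb apart. No test was run, since 1 group and 1 pooled list give no replicate error. The counting code was checked on simulated data. The members, gene lists and named genes (members, interval genes, nearest TSSs, 3 most alike, list genes) were chosen with earlier results of these data known, and the exon, motif and start-group searches after the list was seen. Some genes of the lists and loci are not reported here. Python 3.11.15, numpy and pandas were used.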

Additional observations from a re-analysis of the deposited data

How the results depend on the processing

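Of 114 recomputed values, 77 were unchanged or, for counts, within 1.5 times. No member had a TSS at a boundary under any alternative tried, but only a wider window or another start could have raised that count. Merging neighbours under 100 kb changed no value, since the intervals of the members and those next to them were all longer than that. With the strong boundaries alone the interval was 625 kb at Nfib and 315 kb, with 24 coding TSSs, at Nfic. With the 1842 boundaries above the 75th percentile of strength intervals were 1180 kb (7 coding TSSs) at Nfia, 1080 kb (8) at Nfib, 2445 kb (100) at Nfic and 1635 kb (64) at Nfix, and the nearest boundary was 1156.9 kb from the Nfic and 292 kb from the Nfix TSS. From the TSS of the longest transcript, the nearest boundary was 35.1 kb away at Nfia, 41.7 kb at Nfib, 44.7 kb at Nfic and 64.1 kb at Nfix, and the Nfib interval was 280 kb with 1 coding TSS, its own. Counting all annotated genes gave 9 TSSs in the interval at Nfia, 6 at Nfib and 11 at Nfic.

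Other alternatives were chosen after seeing the data. With RefSeq gene models, Nfia held 1 boundary in its body and Nfib 0, the intervals were 210 kb (1 coding TSS) at Nfia and 280 kb (1) at Nfib, and the nearest boundary was 45.6 kb from the TSS at Nfia, 40.7 kb at Nfib, 49.4 kb at Nfic and 36.3 kb at Nfix. From the start group with most transcripts these distances were 35.1 kb at Nfia, 41.7 kb at Nfib and 44.7 kb at Nfic, and the Nfib interval was 280 kb with 1 coding TSS. Fewer boundaries lengthen intervals by construction, and the rest of the changes follow from the starts, gene extents or gene types counted. No paired analysis was possible because the study has 1 group and the authors pooled its replicates, so no replicate could be left out. The list holds no read counts, so what depth limits is unknown.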
